A study of Homo sapiens with 6 samples.

Results

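Genes for secreted BMP antagonists, follistatins and related inhibitors were examined in RD cells, an established human embryonal rhabdomyosarcoma (ERMS) line, after knockdown of TAK1, the kinase encoded by MAP3K7. The rows were found by their gene symbols, and each of the 9 genes NOG, GREM1, CHRD, FST, FSTL1, FSTL3, BAMBI, DACT1 and DACT3 matched 1 of the 58735 rows of the deposited gene counts. RNA was sequenced from 3 cultures transduced with lentivirus carrying scrambled shRNA (control) and 3 cultures transduced with lentivirus carrying TAK1 shRNA. Both groups thus share the cell line and the viral transduction, and the comparison asks how the 9 genes differ when TAK1 is reduced. A single TAK1 shRNA sequence was used for these libraries, so effects of the knockdown and of that construct cannot be told apart. The label "secreted" covers noggin, gremlin, chordin and the follistatins, whereas BAMBI is a membrane protein and the DACT proteins are intracellular.

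Bone morphogenetic proteins (BMPs), growth and differentiation factors and activins signal through paired type I and type II serine/threonine kinase receptors, which phosphorylate SMAD proteins. Noggin, chordin and gremlin bind BMP ligands outside the cell and keep them from their receptors. Follistatin and FSTL3 bind activins and myostatin, a ligand that limits skeletal muscle growth. FSTL1 shares a follistatin-type domain but has divergent functions. BAMBI is a pseudoreceptor that lacks the kinase domain. DACT proteins bind Dishevelled, and so belong mainly to WNT signaling. TAK1 is itself activated by TGF-beta and BMP receptors as well as by cytokine receptors.

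Total counts on genes ran from 28839898 to 34469323 per library. MAP3K7 was lower in the TAK1 shRNA cultures (log2 fold change -1.30, SE 0.062, adjusted p = 4.45e-14), from edgeR's quasi-likelihood fit to 15935 genes, with p-values adjusted over all of them by Benjamini-Hochberg. A gene is called differentially expressed where its adjusted p was under 0.05 and its log2 fold change was 0.25 or more in size. All 7 markers of RD identity, among them MYOD1, DES and FGFR4, were above the expression filter. None of the 11 epithelial, blood and endothelial markers passed it, and the summed level of each of these 3 lists stayed at or below 0.453 CPM (counts scaled to a common library size) in every library. Proliferation and muscle genes moved with the group. Of 15 proliferation genes 12 were lower, with summed levels of 4330 to 4405 CPM in control and 3404 to 3568 CPM in TAK1 shRNA cultures. Of 17 muscle differentiation genes 7 were higher and 2 were lower, with summed levels of 2446 to 2466 CPM and 2871 to 2982 CPM. Their part in the results for the antagonists was not tested. In bulk RNA, fewer cells expressing a gene and less RNA per cell cannot be told apart. P-values measure the spread among these cultures of 1 line.

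Levels of the 9 genes spanned several orders of magnitude. They were compared with each other per length of annotated exon and library size (RPKM, computed here from the counts). FSTL1 was the most abundant, at 91.8 ± 1.44 RPKM (SD, n = 3) in control cultures, above 98.2% of the 20596 genes with a length and at least 1 count. NOG followed at 23.2 ± 1.49 RPKM, above 90.4% of these genes. FSTL3 reached 3.39 ± 0.204 RPKM, DACT3 1.49 ± 0.153 RPKM and CHRD 0.674 ± 0.049 RPKM, in the middle of the distribution. DACT1 lay at 0.178 ± 0.041 RPKM, and BAMBI, FST and GREM1 were below 0.07 RPKM on average. FSTL1 and NOG together thus supplied most of the summed RPKM of the 9 genes. The share of FSTL1 was 76.0% in control and 79.6% in TAK1 shRNA cultures, and that of NOG was 19.2% and 14.1%. The order of the 9 genes was the same in both groups. In control cultures, the ranges of neighbours in this order overlapped for DACT1 and BAMBI and for BAMBI and FST, and were separate for the other neighbours.

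**Figure D1:**
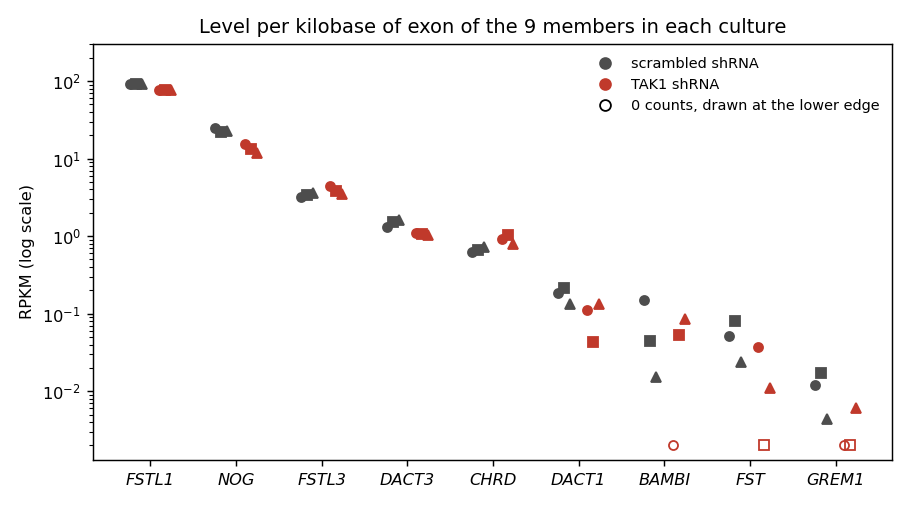
Level of the 9 genes in each culture, in RPKM on a log axis, with control (scrambled shRNA) cultures in grey, TAK1 shRNA cultures in red, and circle, square and triangle for replicates 1, 2 and 3. FSTL1 and NOG stand above the rest, and open symbols at the lower edge mark the libraries in which BAMBI, FST or GREM1 had no count.

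Of the 9 genes, 6 had enough counts to be tested. NOG, FSTL1 and DACT3 were called lower in the TAK1 shRNA cultures, and CHRD was called higher. FSTL3 and DACT1 were not called. Among all 15935 genes tested, 11.3% were called lower and 11.8% were called higher (1805 and 1879 genes). With scaling by library size alone 1404 were lower and 2376 were higher. The groups did not overlap for 5 of the 6 tested genes, the exception being FSTL3, against 43.9% of all genes. The 6 are few and had to pass a filter on low counts, so nothing about the family as a whole is read from these counts. NOG and DACT3 also appear among the epithelial-mesenchymal transition genes that the study selected from these same libraries, so their direction here is not independent evidence.

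**Figure D2:**
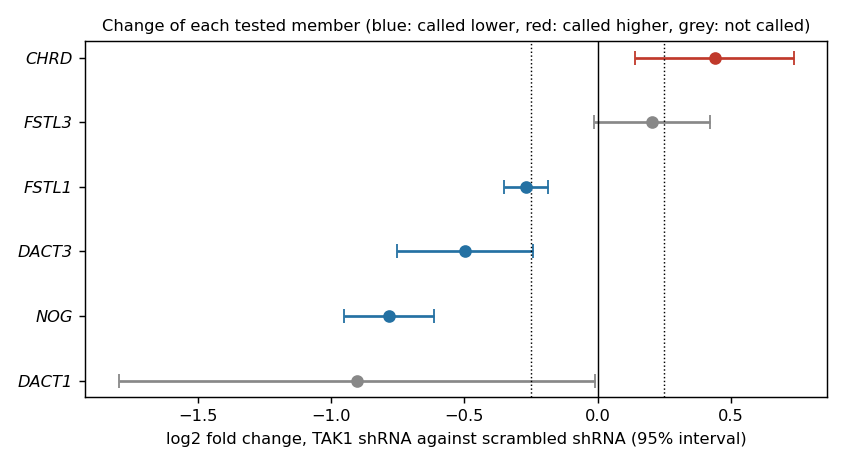
Log2 fold change of the 6 tested genes, TAK1 shRNA against scrambled shRNA, as points with 95% intervals from edgeR; dotted lines mark the fold threshold of 0.25 in each direction. NOG, DACT3 and FSTL1 (blue) lie below 0, CHRD (red) lies above it, and the intervals of FSTL3 and DACT1 (grey) are wide relative to their distance from 0.

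Noggin, which binds BMP2, BMP4 and BMP7 with high affinity, showed the largest change among the called members. NOG (ENSG00000183691.6) is a gene of 1 exon on the plus strand at chr17:56593699-56595611 (GRCh38). It reached 47.5, 42.4 and 42.9 CPM in control cultures 1, 2 and 3, and 29.6, 25.3 and 22.4 CPM in TAK1 shRNA cultures 1, 2 and 3. Every TAK1 shRNA culture lay below every control culture, and the lowest control was well above the highest knockdown value. The means were 44.3 ± 2.84 CPM and 25.8 ± 3.6 CPM (SD, n = 3 each), a log2 fold change of -0.78 (95% interval -0.95 to -0.61, SE 0.082, edgeR adjusted p = 4.76e-08). This is a level 41.9% lower. Leaving out any 1 culture gave values between -0.89 and -0.70.

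Chordin, a large antagonist whose inhibitory complex is cut by tolloid proteases, went the other way. CHRD (ENSG00000090539.16, chr3:184380054-184390736, plus strand) was counted at 119, 139 and 149 reads in control and 180, 241 and 173 reads in TAK1 shRNA cultures. On the CPM scale these were 4.18, 4.41 and 4.83 against 6.16, 6.82 and 5.24. All 3 TAK1 shRNA cultures were above all 3 controls, although the third TAK1 shRNA culture was only slightly above the third control. The means were 4.48 ± 0.328 CPM and 6.07 ± 0.794 CPM (SD, n = 3 each), a log2 fold change of 0.44 (95% interval 0.14 to 0.74, SE 0.144, edgeR adjusted p = 0.0202). The call depended on single libraries. It was lost without control replicate 1 (0.39, edgeR adjusted p = 0.0732), without control replicate 2 (0.43, edgeR adjusted p = 0.0649) and without TAK1 shRNA replicate 2 (0.34, edgeR adjusted p = 0.106). CHRD shares exonic sequence with THPO on the opposite strand, and strand use in counting is not given in the sources used here. THPO itself held 3 to 13 counts per library.

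Gremlin, a BMP antagonist of the DAN family, was at the limit of detection. GREM1 (chr15:32718004-32745106, plus strand) had 5, 8 and 2 counts in control and 0, 0 and 3 counts in TAK1 shRNA cultures. With 15 counts against 3, the ratio of the summed rates was 0.186, with an exact 95% interval of 0.035 to 0.658 that covers counting error only. GREM1 did not pass the expression filter, and when every gene with at least 1 count was tested its adjusted p from edgeR was 0.279. GREM1 shares exonic sequence with GREM1-AS1 on the opposite strand, and without known strand use reads of the pair cannot be told apart. A library with no count allows a level of up to 3 counts, or about 0.085 to 0.103 CPM in TAK1 shRNA cultures 2 and 1.

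**Figure D3:**
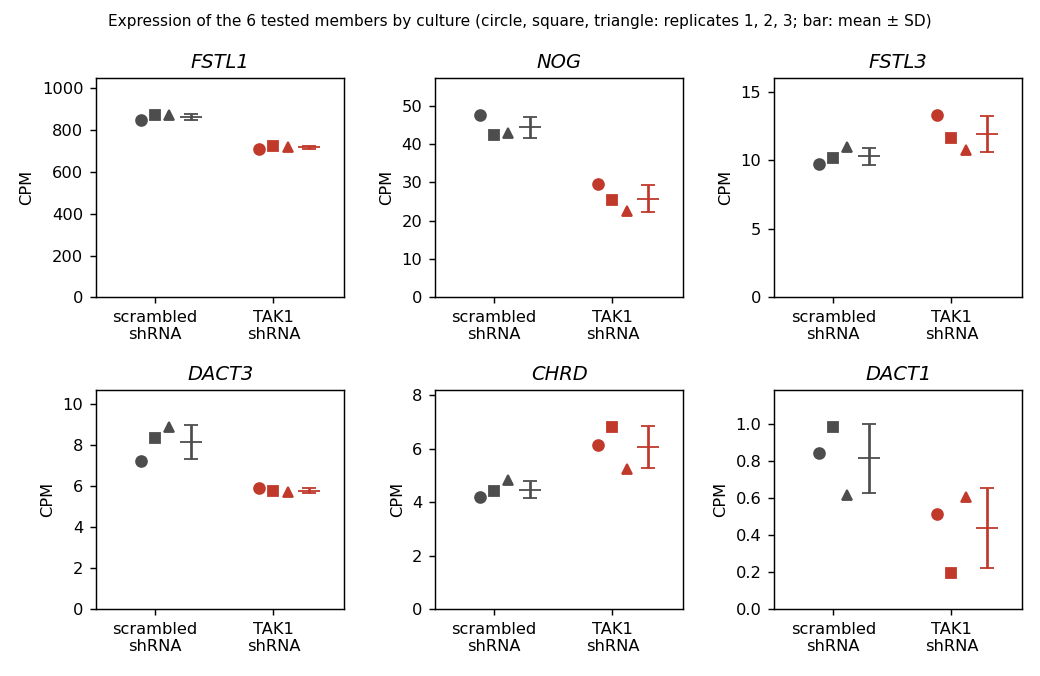
CPM of the 6 tested genes in each culture (circle, square and triangle for replicates 1, 2 and 3), with the mean and SD of each group as bars; each panel has its own axis starting at 0. NOG, FSTL1 and DACT3 are lower in all TAK1 shRNA cultures, CHRD is higher in all of them, and FSTL3 overlaps between the groups.

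The follistatin-related genes differed widely in abundance, and FSTL1 alone of them was called. FSTL1 (ENSG00000163430.13, chr3:120392293-120451016, minus strand) encodes a secreted glycoprotein made by many mesenchymal cells. It was counted at 24116 to 27427 reads in control libraries, which makes its values the most precise of the 9. It reached 848.1, 870.8 and 872.4 CPM in control cultures and 709.9, 723.0 and 719.3 CPM in TAK1 shRNA cultures. The replicates lay close together, and a wide gap separated the groups. The means were 863.8 ± 13.6 CPM and 717.4 ± 6.77 CPM (SD, n = 3 each), a log2 fold change of -0.27 (95% interval -0.35 to -0.19, SE 0.040, edgeR adjusted p = 8.11e-06). The fall of 16.9% is small, and just past the fold threshold. With scaling by library size alone it was -0.22 on the log2 scale (edgeR adjusted p = 8.5e-05) and no longer past that threshold. MIR198, which lies within an FSTL1 exon, was listed at 0 in all libraries. FSTL1 also shares exonic sequence with BTNL12P on the opposite strand, and without known strand use reads of that pair cannot be told apart.

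FSTL3 (ENSG00000070404.10, chr19:676392-683392, plus strand), a secreted inhibitor of activin and myostatin, gave 9.74, 10.2 and 11.0 CPM in control and 13.3, 11.6 and 10.7 CPM in TAK1 shRNA cultures. The third TAK1 shRNA culture lay within the control range, and the other two were above it. The means were 10.3 ± 0.620 CPM and 11.9 ± 1.31 CPM (SD, n = 3 each), and the log2 difference of 0.20 (95% interval -0.01 to 0.42, edgeR adjusted p = 0.148) did not pass the test. It was 0.12 without TAK1 shRNA replicate 1 and 0.26 without TAK1 shRNA replicate 3, and passed the test in neither case. The interval includes values past the fold threshold, so a rise of that size cannot be told from no change with these libraries. Follistatin itself, FST (chr5:53480626-53487134, plus strand), was nearly undetected, with 4, 7 and 2 counts in control and 3, 0 and 1 counts in TAK1 shRNA cultures. With 13 counts against 4 the ratio of rates was 0.286 (exact 95% counting interval 0.068 to 0.926), and edgeR without the expression filter gave an adjusted p of 0.482.

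The inhibitors that act at the membrane or inside the cell differed widely in level. BAMBI (chr10:28677510-28682932, plus strand), itself a known target of BMP and TGF-beta signaling, had 9, 3 and 1 counts in control and 0, 4 and 6 counts in TAK1 shRNA cultures. Both groups spanned a similar range, and with 13 counts against 10 the ratio of rates was 0.716 (exact 95% counting interval 0.281 to 1.77). A change in BAMBI was not detectable at this depth.

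DACT3 (ENSG00000197380.11, chr19:46647551-46661182, minus strand), an antagonist of WNT/beta-catenin signaling, was called lower. It gave 7.24, 8.35 and 8.89 CPM in control and 5.92, 5.75 and 5.70 CPM in TAK1 shRNA cultures. The 3 TAK1 shRNA values were nearly equal, and all lay below the lowest control. The means were 8.16 ± 0.837 CPM and 5.79 ± 0.116 CPM (SD, n = 3 each), a log2 fold change of -0.50 (95% interval -0.75 to -0.24, SE 0.124, edgeR adjusted p = 0.00288). DACT3 was called under each of the 14 alternatives run for single genes, with log2 fold changes between -0.58 and -0.43. DACT1 (ENSG00000165617.16, chr14:58633967-58648321, plus strand), its paralog, held 24, 31 and 19 counts in control and 15, 7 and 20 counts in TAK1 shRNA cultures. The third culture of each group nearly met, at 0.616 and 0.606 CPM. The log2 difference of -0.90 had a wide interval (-1.80 to -0.01), with an edgeR p of 0.048 before and 0.116 after adjustment, so DACT1 was not called. Without TAK1 shRNA replicate 2, the library with 7 counts, the difference was -0.54. DACT1 shares exonic sequence with LINC01500 on the same strand, which was listed at 0 in all libraries. How reads in shared sequence were counted is not given in the sources used here.

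Promoter sequence is shown for CHRD and DACT3, a called gene in each direction. The 250 bases before the RefSeq start (GRCh38.p14) are written 5′ to 3′ on the gene's strand, with each GGCGCC in capitals. The CHRD window is chr3:184379804-184380053 (plus strand), and the DACT3 window shown is chr19:46661183-46661432 (minus strand). A further DACT3 window, chr19:46654719-46654968 (minus strand, 62.4% GC), is not shown and holds no GGCGCC.
CHRD: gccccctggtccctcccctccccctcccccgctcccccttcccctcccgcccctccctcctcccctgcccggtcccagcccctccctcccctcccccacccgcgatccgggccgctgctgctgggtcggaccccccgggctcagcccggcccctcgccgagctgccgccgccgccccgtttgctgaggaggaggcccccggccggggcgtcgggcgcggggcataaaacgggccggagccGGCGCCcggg
DACT3: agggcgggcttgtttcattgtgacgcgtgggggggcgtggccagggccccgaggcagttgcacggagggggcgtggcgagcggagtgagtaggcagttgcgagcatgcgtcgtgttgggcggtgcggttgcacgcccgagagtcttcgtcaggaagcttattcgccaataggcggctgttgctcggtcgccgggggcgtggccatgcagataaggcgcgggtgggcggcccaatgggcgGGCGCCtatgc
Each window shown holds GGCGCC, a GC-rich palindrome bound by SMAD proteins, close to the start. It lies from 10 to 5 bases before the start in CHRD and from 11 to 6 bases before it in DACT3. Promoters were matched for 8 of the 9 genes, with 1 to 3 windows each. GGCGCC was present in 7 of their 12 windows, against 16.4% of the 35116 promoters of the table. Of the 9 windows with a GC content of at least 65%, 7 held it, against 37.0% of the 11387 such promoters. Those 7 windows have 68.4% to 81.6% GC. A floor of 65% does not match GC content, so no excess beyond it is read from this comparison. The windows shown have 81.6% and 68.4% GC, against a median of 58.0%. FST, whose window has 60.0% GC, lacks these letters. It holds a match to the AP-1 letters TGANTCA from 160 to 154 bases before its start, which 6.57% of all promoters also hold. GGCGCC thus occurs beside genes that were lower, higher and not called. Of the other letters searched, also on both strands, the SMAD letters CAGAC occur in 38.0% of all promoters. The E-box CAGCTG occurs in 14.0% of them, the TEAD letters GGAATG in 11.9%, and the TATA-box letters TATAAA in 10.7%. Among the matched genes, these SMAD letters occur beside GREM1, BAMBI and DACT1, but not beside CHRD, FST, FSTL1, FSTL3 or DACT3. The E-box letters occur in no matched window, the TEAD letters beside DACT1 alone, and the TATA-box letters beside FSTL3 alone. An excess of any of these over the background was not tested. The CHRD and DACT3 windows shown hold none of these other letters. A match is a description of the letters and shows no binding.

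Ratios of related genes within a library do not depend on scaling between libraries. The log2 ratio of NOG to CHRD counts was 3.51, 3.26 and 3.15 in control and 2.27, 1.89 and 2.10 in TAK1 shRNA cultures. The groups were separate, and the ratio in TAK1 shRNA cultures was 0.428 times that in controls, a log2 difference of -1.22. The log2 ratio of FSTL1 to FSTL3 was 6.44, 6.42 and 6.31 in control and 5.74, 5.96 and 6.07 in TAK1 shRNA cultures, again without overlap, with a log2 difference of -0.47. For DACT1 to DACT3 the groups overlapped, with a log2 difference of -0.53 that was -0.03 without TAK1 shRNA replicate 2 and -0.85 without TAK1 shRNA replicate 3. Two-sided exact permutation tests gave p = 0.1 for the first and the second ratio, which is the smallest value 3 against 3 can give, and p = 0.5 for the third. After adjustment over the 3 ratios the exact test values were 0.15, 0.15 and 0.5.

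**Figure D4:**
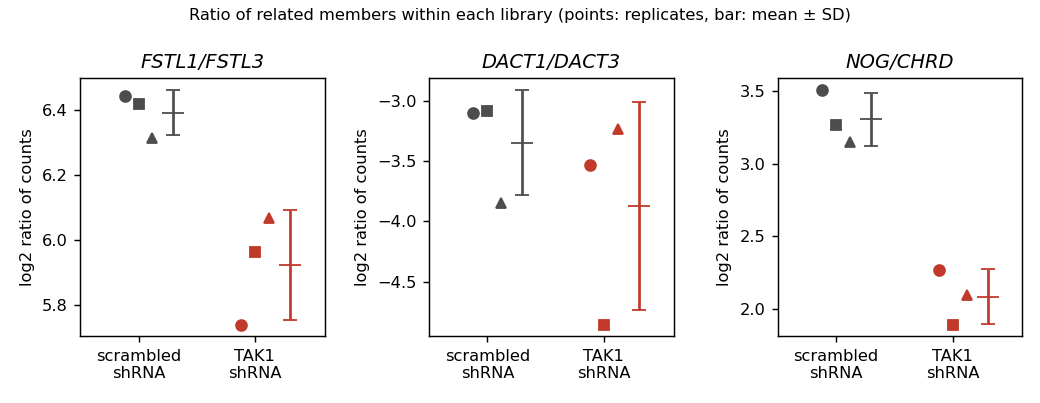
Log2 ratio of counts of FSTL1 to FSTL3, DACT1 to DACT3 and NOG to CHRD within each library (circle, square and triangle for replicates 1, 2 and 3; bars, mean and SD; axes do not start at 0). The first and the last ratio separate the groups, and the ratio of the DACT genes does not.

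The ligands bound by these antagonists were examined next, in lists chosen with earlier results of these data known. Of 17 BMP, GDF and activin ligands 8 were tested, and 3 were higher, with a median log2 fold change of 0.25 against 0.02 over all genes. Myostatin (MSTN), which FST and FSTL3 inhibit, rose from 1398 ± 105 CPM to 1774 ± 187 CPM (SD, n = 3 each, log2 fold change 0.34, edgeR adjusted p = 4.69e-05). Its close relative GDF11 rose by 0.41 on the log2 scale and BMP4, a noggin and chordin ligand, by 0.26. INHBA and INHBB, which encode activin subunits, did not pass the expression filter. Of 22 other secreted antagonists and modulators 9 were tested. Among them CRIM1, a transmembrane BMP-binding protein (log2 fold change -0.73), and SMOC1, an extracellular matrix protein that antagonizes BMPs (-0.54), were lower, while the list median was 0.12. The tolloid-like protease gene TLL2 was lower (log2 fold change -0.67, edgeR adjusted p = 6e-12). Its level went from 465.0 ± 4.93 CPM in control to 292.4 ± 4.67 CPM in TAK1 shRNA cultures (SD, n = 3 each). BMP1, of the same protease family, differed by 0.02. Cleavage of chordin, and whether TLL2 itself acts on chordin, were not examined.

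On the receiving side, 13 of 14 receptors and coreceptors were tested, of which 4 were lower and 1 was higher (median -0.15). The type I receptor BMPR1A was lower by the largest amount among those called (-0.85, from 254.3 to 141.5 CPM on average), followed by ACVR1B (-0.49), ACVR2B (-0.35) and BMPR2 (-0.33), while ACVR2A was higher (0.33). Among 8 tested intracellular brakes of the pathway SMAD6 was lower (-0.57) and PMEPA1 was higher (0.33). Of 10 tested BMP-SMAD target genes 4 were lower and 1 was higher (median -0.25). The lower targets were ID2 (-0.99) and ID3 (-0.53), inhibitors of basic helix-loop-helix factors such as MYOD1, the homeobox gene MSX2 (-0.74) and the AP-1 gene JUNB (-0.32), and the higher one was ATOH8 (0.49). ID1, the best known of these targets, gave -0.26 (edgeR adjusted p = 0.0967) and was not called. All 12 genes for DACT partners, such as Dishevelled and VANGL proteins, were tested, and DVL1 alone was called, with a value of 0.25 at the fold threshold. Over these lists 13 of 62 tested genes were lower and 7 were higher, to be read beside the 11.3% and 11.8% of all genes. Without TAK1 shRNA replicate 1 the number higher was 4 and the number lower was 13.

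**Figure D5:**
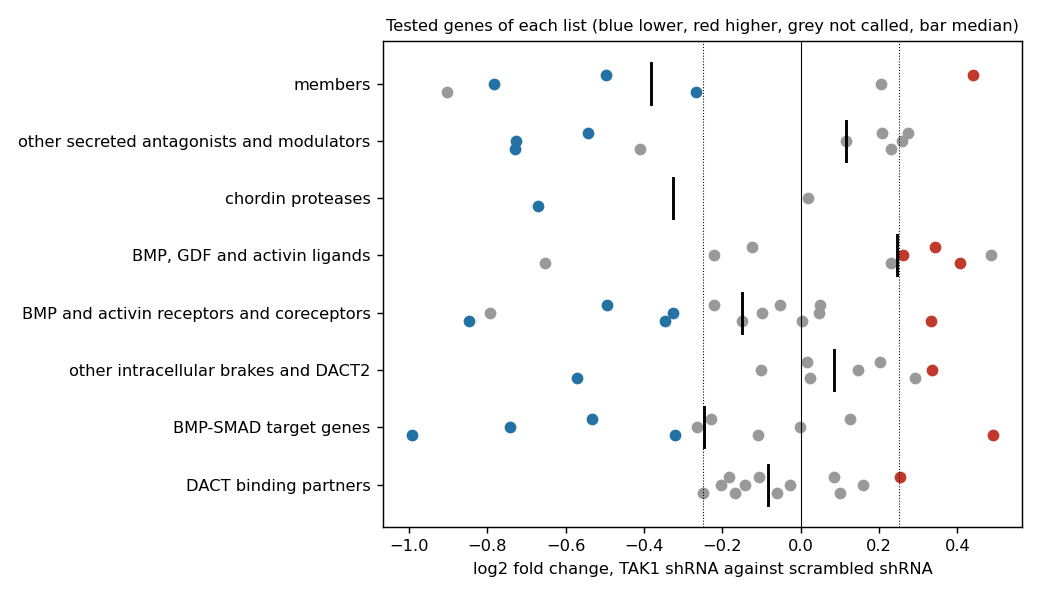
Log2 fold change of every tested gene of the 9 members (top row) and of the related lists, TAK1 shRNA against scrambled shRNA; blue, called lower; red, called higher; grey, not called; vertical bars, list medians; dotted lines, fold threshold of 0.25. Lower and higher genes occur side by side in the receptor, brake and target lists, while the called ligands lie to the right.

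For each called gene, the genes whose log2 CPM followed it most closely over the 6 cultures were found among the 10941 genes that averaged 5 CPM or more. NOG was closest to NCLN (Pearson r = 0.998) and GDPD5 (0.996). CHRD was closest to HEY1 (0.999) and TRIM7 (0.998), FSTL1 to ADSS and SERPINI1 (both above 0.999), and DACT3 to GATC and KLHL15 (both 0.999). These values describe 6 points that share 2 groups, and many genes were nearly as close. A correlation above 0.95 was reached by 472 genes for NOG, 111 for CHRD, 1138 for FSTL1 and 256 for DACT3.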

How the data were processed

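RNA from RD cells was sequenced by the authors after poly(A) enrichment. They filtered reads, aligned them to GRCh38 with STAR after CASAVA base calling, and deposited raw counts per gene, without normalization. The counting program, annotation and strand use are not given in the sources used here. Groups and replicate numbers came from the labels.

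Counts were compared with edgeR 4.0.16 in R 4.3.3 (default expression filter, trimmed mean of M-values, quasi-likelihood test), and p-values were adjusted by Benjamini-Hochberg over 15935 genes. Thresholds were the study's. DESeq2 1.42.0, limma 3.58.1 (voom), 3 other normalizations, 2 filters, 2 fold thresholds, a replicate block and fits without each culture were alternatives. CPM uses the normalized library size, and RPKM also uses GENCODE 44 exon-union length. Scripts were tested on simulated data. Members and lists were chosen with earlier results of these data known. Named genes were the 9 members, MAP3K7, up to 6 called genes per list, by absolute log2 fold change, and 2 most similar genes per called member. INHBA, INHBB, BMP1 and ID1 were added after their values were seen. An item of the lists is not reported here by name. Promoters came from RefSeq (GRCh38.p14).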

Additional observations from a re-analysis of the deposited data

How the results depend on the processing

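NOG and DACT3 were called under all 14 alternatives run for single genes, FSTL1 under all but scaling by library size alone, and CHRD under all but 3 of the libraries left out; FSTL3 and DACT1 were called under none. At a fold threshold of 0.5, 1 member (NOG) was lower and 0 were higher. DACT3 was just under that fold at -0.50 and past it in some other settings (range -0.58 to -0.43). Over all genes 680 were lower and 735 were higher at that threshold. Of the related lists, 9 genes were lower, where 13 had been. In these lists 0 genes were higher, where 7 had been, all of them under that fold. Without a fold threshold 2734 genes were lower and 2569 were higher. With 1 culture left out, the number of members higher ranged from 0 to 1. The number of list genes higher then ranged from 4 to 7, and that of list genes lower from 12 to 14. With the longest annotated transcript in place of the exon union, FSTL1 was at 150.7, FSTL3 at 4.11, DACT3 at 2.65 and CHRD at 0.949 RPKM in control cultures, in the same order. The replicate numbers gave little sign of pairing. Deviations of same-numbered cultures correlated at 0.037, 0.036 and 0.016, and those of unlike-numbered cultures at -0.052 to 0.019. Values this small do not exclude a pairing. With a replicate block in edgeR, 3 members were lower and 1 was higher, and NOG gave -0.79. Counts under 10 per library set the limit for GREM1, FST and BAMBI.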
